A study of Mus musculus with 10 samples.

Results

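The 10 transcripts described here encode receptors and surface or lysosomal markers by which tissue macrophages and monocytes are recognised: Csf1r, Ccr2, Cd163, Mrc1, Cd68, Cd14, Trem2, Mertk, Itgam and Adgre1. They were chosen by name, as 10 of the 21877 gene symbols in the count table, and all 10 passed the filter on low counts. RNA came from the peritoneum of male C57BL/6 mice injected intraperitoneally for 6 weeks, in 4 groups: Mr1+/+ with 4.25% peritoneal dialysis (PD) fluid, Mr1+/+ with PBS, Mr1-/- with PD fluid and Mr1-/- with PBS. Mr1 encodes the antigen-presenting molecule on which mucosal-associated invariant T (MAIT) cells depend, and PD fluid is a glucose-rich solution infused into the abdomen to draw out water and waste. The sources used here do not give the age of the mice, how the Mr1-/- line was made or whether animals were pooled.

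Macrophages of serous tissues descend from embryonic precursors or from blood monocytes, and depend on the growth factor receptor Csf1r for survival. Monocytes leave the marrow and enter inflamed tissue through the chemokine receptor Ccr2. Once in tissue, macrophages clear haemoglobin, glycoproteins, microbial products and dying cells through receptors such as Cd163, Mrc1, Cd14, Trem2 and Mertk. None of these genes is restricted to 1 cell type: neutrophils and natural killer cells carry Itgam, some lymphatic endothelial cells carry Mrc1, and some T cells carry Ccr2.

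The libraries held 14145635 to 16335799 counts each. There were 3 libraries of Mr1+/+ PD fluid, 3 of Mr1+/+ PBS, 2 of Mr1-/- PD fluid and 2 of Mr1-/- PBS. Replicates 1 and 2 of Mr1-/- PD fluid were nearly identical (chi-square 1.74 per gene), as were replicates 1 and 2 of Mr1+/+ PBS (2.23), while the other 6 pairs within groups gave 18.6 to 118. These pairs differed far less than any other replicates, though by somewhat more than sampling noise alone, and each was counted as 1 sample. This left 3 samples of Mr1+/+ PD fluid, 2 of Mr1+/+ PBS, 1 of Mr1-/- PD fluid and 2 of Mr1-/- PBS. The targeted gene, Mr1, was low in every Mr1-/- sample: 2.25 ± 0.255 CPM (SD, n = 3), against 27.7 ± 4.66 CPM (SD, n = 5) across Mr1+/+ (exact two-sided permutation test, p = 0.0179, the smallest that 56 splits can give). Mesothelial markers, which define the surface of the tissue, were present in every sample, with a summed level of 58.7 to 411 CPM over 6 genes. Mr1+/+ PBS replicate 3 carried intestinal epithelial markers at 1730 CPM in sum, against 14.8 to 29.7 CPM in the other samples. It carried pancreatic acinar markers at 20981 CPM, against 123 to 4125 CPM. Some of the results that rest on it are therefore also given without it. Leaving it out leaves 1 Mr1+/+ PBS sample, so the other groups then set the spread. Counts of calls from that fit do not measure variation among Mr1+/+ PBS samples. Levels are given as CPM, counts scaled to each library's size after TMM normalization.

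PD fluid in Mr1+/+ peritoneum was accompanied by higher levels of 6 of the 10 receptor transcripts. Cd163, Itgam, Ccr2, Adgre1, Mrc1 and Cd14 rose by 0.98 to 1.69 on the log2 scale, none fell, and Csf1r, Cd68, Trem2 and Mertk did not pass. Among all 15385 genes tested with edgeR, 14.9% were called at an adjusted p under 0.05, of which 8.49% of all genes rose and 6.37% fell. The median log2 fold change of the 10 was 1.09, against -0.06 over all genes tested. All 10 values were positive, as were 46.1% of all genes. For 7 of the 10 every PD fluid sample lay above every PBS sample, and the same held for 25% of all genes. Without Mr1+/+ PBS replicate 3, which leaves 1 Mr1+/+ PBS sample, the median of the 10 was 1.53. The calls, unlike the signs, depended on single PD fluid libraries. All 10 values stayed positive without Mr1+/+ PD fluid replicate 1, 2 or 3, with medians of 1.24, 1.12 and 0.99. Without Mr1+/+ PD fluid replicate 1, 7 of the 10 and 2151 genes passed. Without replicate 2 only Cd163 among 339 genes passed, and without replicate 3 none of the 10 and none of all genes passed. Markers of other tissue cells rose in the same comparison: 6 of 8 for fibroblasts (median 1.45), 9 of 10 for adipocytes (1.52) and 5 of 7 for endothelium (1.04). The fibroblast sum was 2413 to 2587 CPM in Mr1+/+ PD fluid and 1051 to 1121 CPM in Mr1+/+ PBS samples. The part of these cells in the receptor values was not tested. In bulk tissue, more cells of a type and more RNA per cell cannot be told apart.

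**Figure D1:**
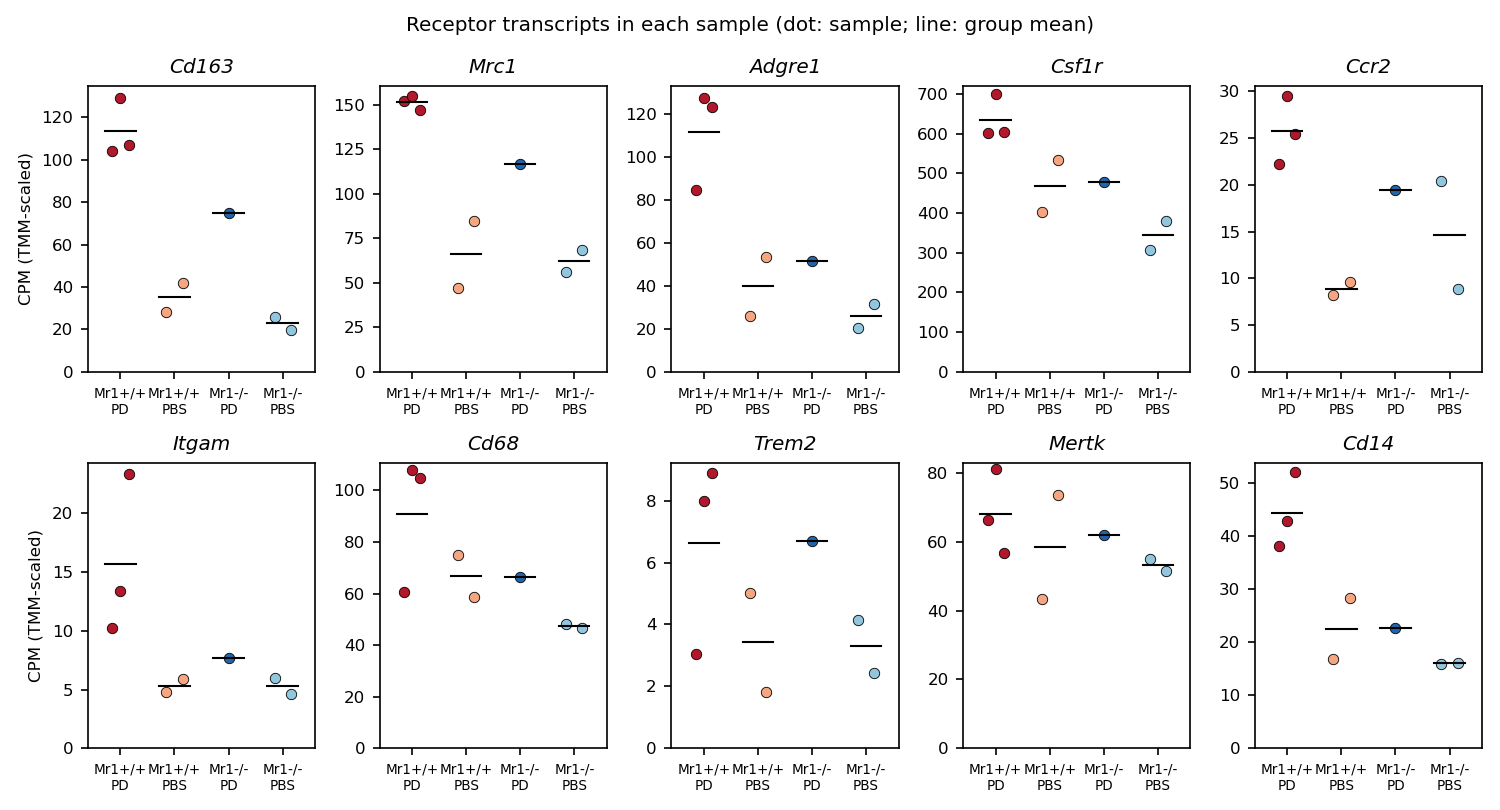
Level of each receptor transcript in CPM (vertical axes, each starting at 0) in the 8 samples, by group along the horizontal axis, with a dot per sample and a line at the group mean. The 3 Mr1+/+ PD fluid samples lie above both Mr1+/+ PBS samples for Cd163, Mrc1, Adgre1, Csf1r, Ccr2, Itgam and Cd14, and overlap them for Cd68, Trem2 and Mertk.

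Of the endocytic receptors, Cd163 and Mrc1 rose and Cd68 did not pass. Cd163 (ENSMUSG00000008845.9; mm10 chromosome 6, 124304656 to 124330527, plus strand) encodes the receptor that takes up haptoglobin-bound haemoglobin. It stood at 104, 129 and 107 CPM in Mr1+/+ PD fluid samples, against 28.4 and 41.8 CPM in Mr1+/+ PBS samples. The lowest PD fluid sample was thus far above the highest PBS sample, and the log2 fold change was 1.69 (SE 0.22, adjusted p = 0.0124). Of the 10 transcripts it had the largest change and the smallest p in this comparison. In Mr1-/- peritoneum Cd163 stood at 74.8 CPM in the PD fluid sample, against 25.8 and 19.8 CPM in the PBS samples, a log2 fold change of 1.71 (SE 0.27, adjusted p = 0.931). The log2 sizes in Mr1-/- and Mr1+/+ differed by 0.02 (SE 0.34, adjusted p = 0.994 for the interaction).

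Mrc1 (ENSMUSG00000026712.3; chromosome 2, 14229392 to 14332057, plus strand), the mannose receptor, binds glycoproteins and collagen fragments. Its levels were 152, 155 and 147 CPM in Mr1+/+ PD fluid samples, against 47.2 and 84.6 CPM in Mr1+/+ PBS samples. The groups did not overlap, and the 3 PD fluid samples lay within a narrow band (log2 fold change 1.20, SE 0.24, adjusted p = 0.0203). In Mr1-/- the PD fluid sample had 117 CPM, against 56.0 and 68.5 CPM with PBS (0.91, SE 0.30, adjusted p of 1). Endothelial markers were also higher with PD fluid in Mr1+/+, with a sum over 7 genes of 1501 to 1785 CPM, against 990 to 1031 CPM in Mr1+/+ PBS. In Mr1-/- that sum was 1064 CPM with PD fluid and 907 to 1023 CPM with PBS. These 7 genes do not single out lymphatic endothelial cells. The part of endothelial cells in the Mrc1 result was not tested.

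Cd68 (ENSMUSG00000018774.13; chromosome 11, 69664213 to 69666153, minus strand), a glycoprotein of the lysosome and a common stain for macrophages, did not follow. It had 60.6, 108 and 105 CPM in Mr1+/+ PD fluid samples, against 74.9 and 58.5 CPM in Mr1+/+ PBS samples. PD fluid replicate 1 lay among the PBS samples and the other 2 above them (0.45, SE 0.25, adjusted p = 0.247). Without that library Cd68 passed, at 0.67 (adjusted p = 0.0390). In Mr1-/- it had 66.4 CPM in the PD fluid sample and 48.1 and 46.8 CPM in the PBS samples (0.48, SE 0.33, adjusted p of 1).

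The surface markers of the lineage, Adgre1 and Itgam, rose in Mr1+/+. Adgre1 (ENSMUSG00000004730.15; chromosome 17, 57358691 to 57483527, plus strand) encodes F4/80, the classical antigen of mouse macrophages. It was measured at 84.6, 128 and 123 CPM in Mr1+/+ PD fluid samples, against 26.1 and 53.6 CPM in Mr1+/+ PBS samples. The groups were apart, with PD fluid replicate 1 and PBS replicate 3 nearest each other (1.49, SE 0.37, adjusted p = 0.0411). In Mr1-/- there were 51.8 CPM in the PD fluid sample and 20.3 and 31.8 CPM in the PBS samples (0.99, SE 0.46, adjusted p of 1). The Mr1-/- PD fluid sample was below the higher of the Mr1+/+ PBS samples.

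Itgam (ENSMUSG00000030786.18; chromosome 7, 128062640 to 128118491, plus strand) encodes CD11b, the alpha chain of an integrin that binds complement fragments and ICAM-1. It was sparse, with 68 to 361 counts per library. Its levels were 10.2, 13.4 and 23.4 CPM in Mr1+/+ PD fluid samples, against 4.80 and 5.90 CPM in Mr1+/+ PBS samples. All PD fluid samples were higher, replicate 3 most of all (1.55, SE 0.38, adjusted p = 0.0319). Without replicate 3 the change was 1.14 and did not pass (adjusted p = 0.0932). In Mr1-/- the PD fluid sample had 7.67 CPM and the PBS samples 5.98 and 4.60 CPM (0.53, SE 0.47, adjusted p of 1). Neutrophils also carry Itgam, and 4 of 12 tested neutrophil markers rose: Lcn2 (3.48, SE 0.64), Mmp9 (1.52, SE 0.32), S100a9 (4.04, SE 0.86) and Elane (2.59, SE 0.60). Of all genes 8.49% rose. The median of the 12 was 3.15, and 2.77 when Mr1+/+ PBS replicate 3 was left out. Over 13 markers the sum was 51.6 to 190 CPM in Mr1+/+ PD fluid and 29.5 to 45.0 CPM in Mr1+/+ PBS samples. In Mr1-/- the sum was 34.6 CPM with PD fluid and 19.3 to 33.9 CPM with PBS. Ly6g, S100a8, Mpo, Ngp, Camp and Retnlg were at 0 in at least 1 library. The part of neutrophils in the Itgam result was not tested. The annotation places Gm49368 over Itgam on the same strand, and that symbol held 15 counts over all libraries against 1365 for Itgam.

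Ccr2 (ENSMUSG00000049103.14; chromosome 9, 124101950 to 124113557, plus strand), the receptor for monocyte chemoattractants, was at 22.3, 29.5 and 25.4 CPM in Mr1+/+ PD fluid samples, against 8.21 and 9.62 CPM in Mr1+/+ PBS samples. Every PD fluid sample had more than any PBS sample (1.53, SE 0.35, adjusted p = 0.0276). In Mr1-/- the PD fluid sample had 19.4 CPM and the PBS samples 20.5 and 8.86 CPM. It was the 1 member whose Mr1-/- samples overlapped between treatments, because PBS replicate 1 was as high as the PD fluid sample (0.41, SE 0.43, adjusted p of 1). Without that library the change was 1.13, and without PBS replicate 2 it was -0.07.

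Cd14 (ENSMUSG00000051439.7; chromosome 18, minus strand), the co-receptor that hands bacterial lipopolysaccharide to Tlr4, was at 38.0, 42.7 and 52.0 CPM in Mr1+/+ PD fluid samples, against 16.7 and 28.2 CPM in Mr1+/+ PBS samples. The groups did not overlap (0.98, SE 0.25, adjusted p = 0.0354). In Mr1-/- it was at 22.6 CPM in the PD fluid sample and 15.9 and 16.0 CPM in the PBS samples (0.50, SE 0.32, adjusted p of 1).

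Csf1r (ENSMUSG00000024621.16; chromosome 18, plus strand), the receptor for Csf1 and Il34, was the most abundant of the 10. It had 601, 701 and 605 CPM in Mr1+/+ PD fluid samples, against 403 and 534 CPM in Mr1+/+ PBS samples. All PD fluid samples were higher, but the difference did not pass (0.44, SE 0.19, adjusted p = 0.138). With the 10 libraries as separate samples it passed, at 0.51 (adjusted p = 0.0189), in a fit that called 37.5% of all genes. In Mr1-/- there were 479 CPM in the PD fluid sample and 307 and 381 CPM in the PBS samples (0.48, SE 0.24, adjusted p of 1). The gene Hmgxb3 overlaps Csf1r on the opposite strand, and it held 9207 counts over all libraries against 75499 for Csf1r. If strand was not used in counting, reads in their overlap cannot be assigned.

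The receptors for lipids and dying cells did not pass. Trem2 (ENSMUSG00000023992.14; chromosome 17, 48346401 to 48354147, plus strand), which senses lipids and signals through Tyrobp, had 26 to 137 counts per library. Its levels were 3.04, 7.98 and 8.88 CPM in Mr1+/+ PD fluid samples, against 5.01 and 1.83 CPM in Mr1+/+ PBS samples. The groups overlapped (0.94, SE 0.59, adjusted p = 0.296). In Mr1-/- it was at 6.69 CPM in the PD fluid sample and 4.15 and 2.44 CPM in the PBS samples (1.02, SE 0.75, adjusted p of 1). Its standard error was the widest of the 10 in both genotypes, at the lowest counts.

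Mertk (ENSMUSG00000014361.5; chromosome 2, 128698956 to 128802894, plus strand), a kinase that binds dying cells through Gas6 and Pros1, varied least. It stood at 66.3, 81.2 and 56.8 CPM in Mr1+/+ PD fluid samples, against 43.5 and 73.5 CPM in Mr1+/+ PBS samples. The groups overlapped (0.22, SE 0.24, adjusted p = 0.540). In Mr1-/- there were 61.9 CPM in the PD fluid sample and 55.0 and 51.4 CPM in the PBS samples (0.22, SE 0.32, adjusted p of 1). Over all 8 samples its highest level was 1.87 times its lowest, against 6.52 times for Cd163 and 6.28 times for Adgre1.

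**Figure D2:**
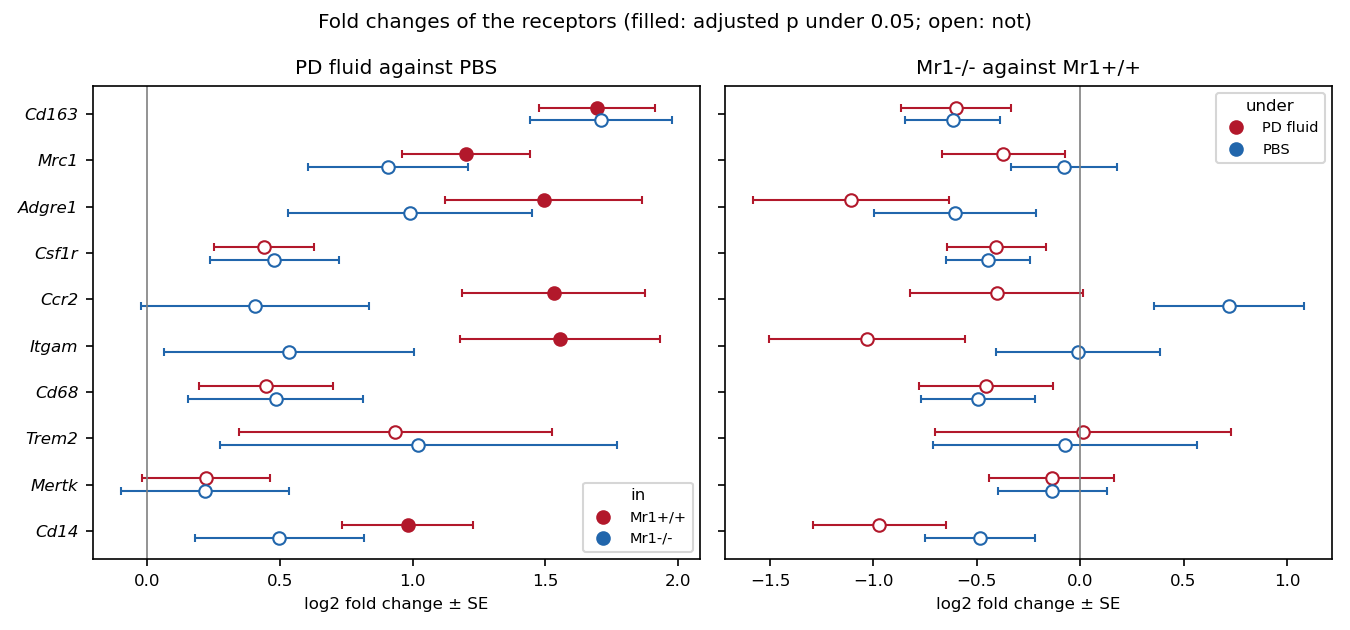
Log2 fold change (horizontal axis) with its standard error for each receptor, for PD fluid against PBS on the left (red, Mr1+/+; blue, Mr1-/-) and Mr1-/- against Mr1+/+ on the right (red, under PD fluid; blue, under PBS). Filled dots passed an adjusted p under 0.05, and the 6 filled dots are all in Mr1+/+ under PD fluid, from 0.98 for Cd14 to 1.69 for Cd163.

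The starts of 3 genes that rose are shown because these transcripts were higher together in Mr1+/+. The 250 bases before the start are from RefSeq (GRCm38.p6, all on the plus strand). Capitals mark GAGGAA or its reverse complement TTCCTC, the core bound by PU.1, the factor encoded by Spi1 that directs macrophage development. The windows are chr6:124304401-124304650 for Cd163, chr2:14229164-14229413 for Mrc1 and chr7:128062390-128062639 for Itgam. RefSeq starts Mrc1 slightly downstream of GENCODE, so the last bases of its window lie within the gene as placed above.
Cd163: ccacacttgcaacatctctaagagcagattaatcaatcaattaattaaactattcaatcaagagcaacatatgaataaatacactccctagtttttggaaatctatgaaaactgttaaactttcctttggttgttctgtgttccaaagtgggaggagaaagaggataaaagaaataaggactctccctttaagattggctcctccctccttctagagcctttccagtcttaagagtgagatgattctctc
Mrc1: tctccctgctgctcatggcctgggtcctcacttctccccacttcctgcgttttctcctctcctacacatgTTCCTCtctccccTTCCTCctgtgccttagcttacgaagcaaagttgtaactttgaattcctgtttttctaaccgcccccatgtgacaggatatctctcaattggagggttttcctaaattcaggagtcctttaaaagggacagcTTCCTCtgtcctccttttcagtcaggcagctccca
Itgam: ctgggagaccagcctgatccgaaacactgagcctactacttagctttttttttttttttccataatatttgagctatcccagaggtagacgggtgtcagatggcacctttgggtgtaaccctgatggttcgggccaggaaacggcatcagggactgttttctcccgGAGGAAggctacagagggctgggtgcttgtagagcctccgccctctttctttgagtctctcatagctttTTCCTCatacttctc

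Mrc1 held 3 matches, starting at -180, -167 and -35 from the start, and Itgam held 2, at -84 and -15. Cd163 held none in this window. Ccr2, which also rose, held none in chr9:124101933-124102182. Most of that window lies within the gene as placed above, so it says little of the bases upstream. Windows of Adgre1, Cd14 and Csf1r are not given here. Of receptors that did not pass, Cd68 and Trem2 held 1 match each and Mertk none. Of 32851 RefSeq promoter windows of this length, searched on both strands, 23.3% held at least 1 match. The matches describe letters and do not show binding. Spi1 itself was at 0.03 (SE 0.15, adjusted p = 0.893) in Mr1+/+.

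Levels were compared between receptors per kb of the longest principal coding transcript. In every group Csf1r was highest and Cd68 next. In groups with more than 1 sample there was no overlap between their samples or between Cd68 and the gene after it. The Mr1-/- PD fluid group has 1 sample and gives an order only. In Mr1+/+ PD fluid samples Csf1r averaged 135 and Cd68 74.0 CPM per kb, and in Mr1+/+ PBS samples 99.6 and 54.2 CPM per kb. Below them in Mr1+/+ PD fluid came Adgre1 (34.5), Mrc1 (28.2, each in CPM per kb), Cd14 (27.0) and Cd163 (25.8), whose neighbours overlapped. Mertk followed at 15.8 CPM per kb, apart from Cd163 above it. In Mr1+/+ PBS samples Cd14, Mertk, Adgre1, Mrc1 and Cd163 lay between 13.7 and 7.98 CPM per kb, and each overlapped the next. Mertk thus averaged less per kb than Cd163 in Mr1+/+ PD fluid and more in Mr1+/+ PBS samples. Ccr2 and Itgam were the lowest in both Mr1+/+ groups, at 4.49 and 3.37 CPM per kb with PD fluid and 1.56 and 1.15 CPM per kb with PBS. The place of Trem2 depended on the length used: its mean over the 8 samples was 4.60 CPM per kb of its 1.088 kb principal transcript and 1.01 CPM per kb of all its annotated exons.

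**Figure D3:**
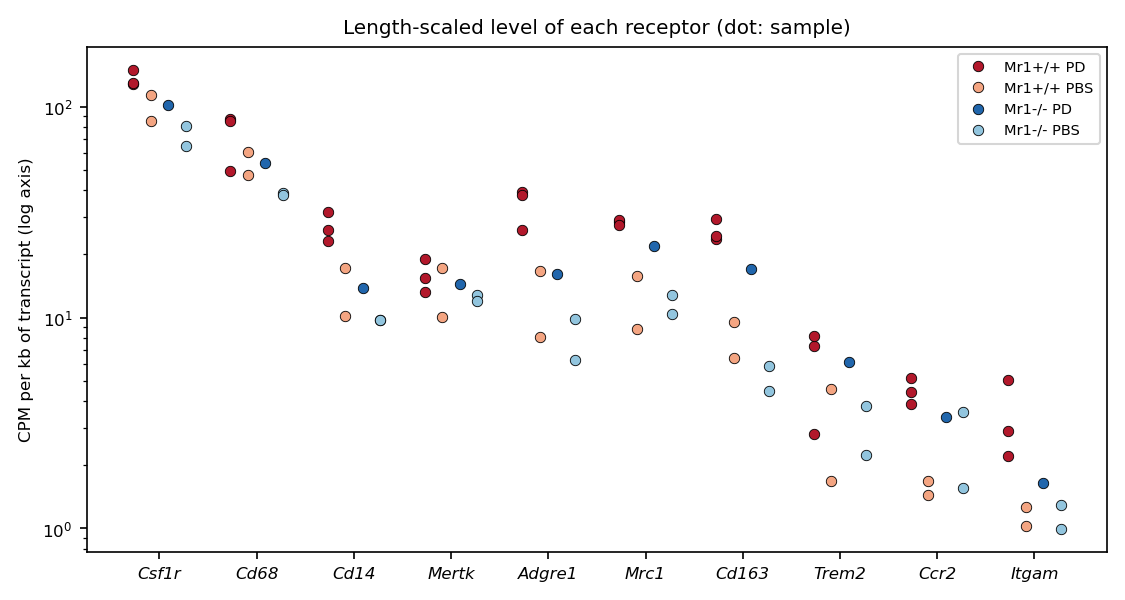
Level of each receptor in CPM per kb of transcript (vertical log axis), genes ordered by their mean in Mr1+/+ PBS samples, with a dot per sample coloured by group. Csf1r and Cd68 are above the rest in every group, while Cd163, Mrc1 and Adgre1 average above Mertk in Mr1+/+ with PD fluid and below it in Mr1+/+ with PBS.

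The receptors changed unequally against Csf1r, so they were also expressed as a percentage of the Csf1r level (in CPM) of the same sample. Cd163 was 17.3%, 18.5% and 17.7% of Csf1r in Mr1+/+ PD fluid samples, against 7.06% and 7.84% in Mr1+/+ PBS samples. In Mr1-/- it was 15.6% in the PD fluid sample and 8.42% and 5.21% in the PBS samples. In each genotype the PD fluid samples were above the PBS samples. Mrc1 and Adgre1 had the same order: Mrc1 was 22.1% to 25.3% of Csf1r in Mr1+/+ PD fluid and 11.7% to 15.8% in Mr1+/+ PBS samples, and Adgre1 14.07% to 20.4% with PD fluid and 6.49% to 10.03% with PBS. Mertk was 9.39% to 11.6% of Csf1r in Mr1+/+ PD fluid samples and 10.8% to 13.8% in Mr1+/+ PBS samples, which overlapped. In Mr1-/- it was 12.9% in the PD fluid sample, below the 17.9% and 13.5% of the PBS samples. Ccr2, Itgam and Cd14 were also higher relative to Csf1r in Mr1+/+ PD fluid than in Mr1+/+ PBS samples, but overlapped between treatments in Mr1-/-. Cd68 overlapped in both genotypes, and Trem2 overlapped in Mr1+/+ and was higher with PD fluid in Mr1-/-. These ratios show unequal change within a sample and carry no test.

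**Figure D4:**
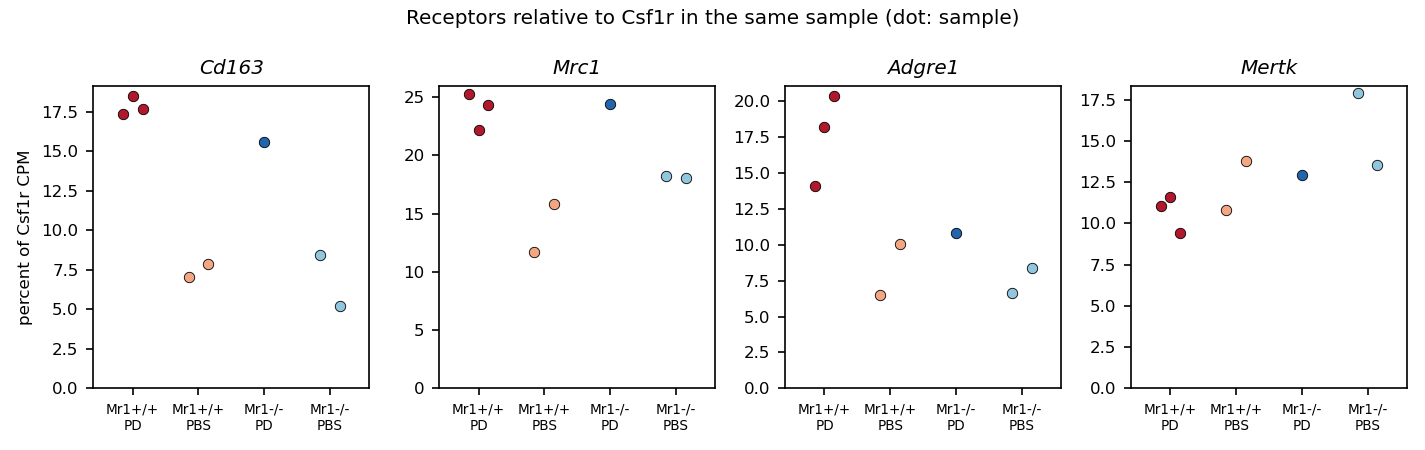
Level of Cd163, Mrc1, Adgre1 and Mertk as a percentage of Csf1r CPM in the same sample (vertical axes, from 0), by group, with a dot per sample. The Mr1+/+ PD fluid samples sit at 17.3% to 18.5% for Cd163, above the 7.06% and 7.84% of Mr1+/+ PBS, while Mertk overlaps between these groups.

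In Mr1-/- peritoneum the PD fluid effect was read from 1 PD fluid sample and 2 PBS samples. All 10 transcripts were positive, as were 46.7% of all genes, with a median log2 fold change of 0.52 against -0.01 over all genes. In 9 of 10, Ccr2 being the exception, the PD fluid sample was above both PBS samples, and the same held for 28.7% of all genes tested. EdgeR called 0 of the 10 and 0% of all genes (2 of 10 and 1.5% at an unadjusted p under 0.05, Cd163 and Mrc1), and DESeq2 called Cd163 (1.70, adjusted p = 0.000143) among 3 genes, 0.0195% of all. The difference of the PD fluid effect between genotypes was tested for each receptor. None passed, with 0% of all genes called by edgeR, and the 10 values had a median of -0.15. At an unadjusted p under 0.05 there were 0 of 10 and 13.2% of all genes, and DESeq2 called 0 of the 10 and 3.07% of all genes. The smallest p belonged to Ccr2 (-1.12, SE 0.56, adjusted p = 0.422) and Itgam followed (-1.02, SE 0.61, adjusted p = 0.478). These p-values do not show that the receptors responded alike in the genotypes.

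Between genotypes most receptors were lower in Mr1-/-, without a call. Under PD fluid 9 of 10 were negative, all but Trem2, where 50% of all genes were positive, with a median of -0.43 against 0.00 over all genes. For Cd163, Mrc1, Adgre1, Csf1r, Ccr2, Itgam and Cd14 the Mr1-/- sample lay below all 3 Mr1+/+ samples, 7 of 10 against 33.9% of all genes. Adgre1 differed most, at 51.8 CPM in the Mr1-/- sample and 112 ± 23.7 CPM (SD, n = 3) in Mr1+/+ samples (-1.11, SE 0.47, adjusted p = 0.266). Cd14 had 22.6 CPM in the Mr1-/- sample and 44.2 ± 7.10 CPM (SD, n = 3) in Mr1+/+ samples (-0.97, SE 0.32, adjusted p = 0.182). EdgeR called none of the 10 and 0.013% of all genes (1 of 10 and 19.1% at an unadjusted p under 0.05). DESeq2 called Cd14 (adjusted p = 0.0452) with 6.7% of all genes, and the fit of 10 separate libraries called Cd14, Cd163 and Itgam with 22.9% of all genes.

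Under PBS 9 of 10 were again negative, where 48.2% of all genes were positive, with a median of -0.29 against -0.02 over all genes, and the exception was Ccr2 (0.72, SE 0.36, adjusted p = 0.577). The signs were unstable. Without Mr1+/+ PBS replicate 3, 6 of 10 were negative with a median of -0.03, and Mrc1 (0.40), Mertk (0.29) and Itgam (0.14) were positive beside Ccr2. Without Mr1-/- PBS replicate 1, Ccr2 was at -0.0061. Cd163 had 22.8 ± 4.26 CPM in Mr1-/- and 35.1 ± 9.49 CPM in Mr1+/+ samples (SD, n = 2 each; -0.62, SE 0.23, adjusted p = 0.566). Cd163, Csf1r, Cd68 and Cd14 had both Mr1-/- samples below both Mr1+/+ samples, 4 of 10 against 18.1% of all genes. Without Mr1+/+ PBS replicate 3, these 4 and Trem2 had both Mr1-/- samples below the 1 Mr1+/+ sample left, 5 of 10 against 36.5% of all genes. None passed, with 0.013% of all genes called by edgeR. At an unadjusted p under 0.05 there were 1 of 10 and 8.64% of all genes, and DESeq2 called 0 of the 10 and 1.38% of all genes. The genotype comparisons share no sample with each other, but each shares samples with a PD fluid comparison.

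The ligands and partners of these receptors were examined from a list of 18 genes. In Mr1+/+, 7 rose with PD fluid and none fell, against 8.49% and 6.37% of all genes. Their median was 0.58, and 0.64 without Mr1+/+ PBS replicate 3. Hp, the haptoglobin whose complex with haemoglobin Cd163 takes up, was at 590, 1636 and 2068 CPM in Mr1+/+ PD fluid samples, against 114 and 125 CPM in Mr1+/+ PBS samples (3.58, SE 0.57, adjusted p = 0.0173). Hmox1, which breaks down the haem so delivered, rose by 1.35 (SE 0.32). Hepatocytes and adipocytes make Hp. The sum of 10 adipocyte markers was 9851 to 14885 CPM in Mr1+/+ PD fluid and 3751 to 4737 CPM in Mr1+/+ PBS samples, and 5091 CPM with PD fluid and 3856 to 5992 CPM with PBS in Mr1-/-. The sum of 6 liver markers was 2.75 to 5.33 CPM in Mr1+/+ PD fluid. In Mr1+/+ PBS it was 1.599 CPM in the summed replicates 1 and 2. It was 240.3 CPM in replicate 3, the sample with intestinal markers. There Apoa1 was at 141 CPM, Apob at 93.7 CPM and Alb at 0.49 CPM. In Mr1-/- the liver sum was 133 CPM with PD fluid and 81.1 to 132 CPM with PBS, with Alb at 64.1 to 107 CPM. Erythroid transcripts were also higher, with a sum over 6 genes of 84.8 to 240 CPM in Mr1+/+ PD fluid and 18.1 to 35.6 CPM in Mr1+/+ PBS samples. In Mr1-/- that sum was 51.7 CPM with PD fluid and 14.2 to 20.2 CPM with PBS, while Hp was at 233 CPM with PD fluid and 221 and 172 CPM with PBS. The parts of fat cells in the Hp result and of red cells in the Cd163 result were not tested.

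For Csf1r, the ligand Il34 was at 15.0, 17.4 and 20.0 CPM in Mr1+/+ PD fluid samples and 4.03 and 7.93 CPM in Mr1+/+ PBS samples (1.56, SE 0.32, adjusted p = 0.0221). The other ligand, Csf1, was at 0.40 (SE 0.15, adjusted p = 0.106). For Mertk, which did not pass, the ligands Gas6 and Pros1 rose by 0.98 (SE 0.15) and 1.07 (SE 0.165), and Axl, a kinase of the same family, by 0.58 (SE 0.14). For Cd14, the lipopolysaccharide carrier Lbp rose by 1.63 (SE 0.25), and Tlr4 (0.38, SE 0.22) and Myd88 (0.07, SE 0.14) did not pass. For Trem2, the lipoprotein gene Apoe rose by 0.69 (SE 0.18, adjusted p = 0.0417), and the adaptor Tyrobp was at 0.55 (SE 0.18, adjusted p = 0.0725). For Itgam, the partner chain Itgb2, which lymphocytes share, was at -0.33 (SE 0.16, adjusted p = 0.190).

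The list held 4 monocyte chemoattractant genes, Ccl2, Ccl7, Ccl8 and Ccl12, and none passed in any comparison. Ccl2 was at 3.53, 2.21 and 3.63 CPM in Mr1+/+ PD fluid samples, against 3.14 and 1.40 CPM in Mr1+/+ PBS samples. In Mr1-/- it was at 16.6 CPM in the PD fluid sample, its highest level, against 2.38 and 4.47 CPM in the PBS samples. Any link to Ccr2, which overlapped between treatments in Mr1-/-, was not tested. Ccl7 was likewise at 7.39 CPM in the Mr1-/- PD fluid sample and 1.14 to 2.50 CPM in the other 7. Their log2 fold changes were 2.27 and 1.91 for PD fluid in Mr1-/-, and 2.40 and 2.33 between genotypes under PD fluid. Ccl8 differed: it was at 1.49, 12.3 and 19.2 CPM in Mr1+/+ PD fluid and 3.14 and 2.88 CPM in Mr1+/+ PBS samples, against 4.23 CPM in the Mr1-/- PD fluid sample. Ccl12 was at 0.13 to 2.29 CPM in Mr1+/+ PD fluid and 0.42 to 1.91 CPM in Mr1+/+ PBS samples, and at 1.23 CPM in the Mr1-/- PD fluid sample.

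Other macrophage genes were counted in the same way for PD fluid in Mr1+/+, where 8.49% of all genes rose and 6.37% fell. Of 14 genes of resident macrophages 12 were positive, 3 rose and none fell, with a median of 0.85. Those that rose were the transglutaminase subunit F13a1 (2.49, SE 0.50), the complement component C1qb (0.97, SE 0.24) and the complement receptor Vsig4 (3.04, SE 0.77). Timd4 (-0.37, SE 0.47) and Lyve1 (0.48, SE 0.22), markers of long-lived resident cells that were picked outside the naming rule, did not pass, and Timd4 and Siglec1 were the negative ones. Of 8 tested genes of large peritoneal macrophages, the cells that float in the cavity, 1 rose, Fcna (1.18, SE 0.31), and their defining factor Gata6, also picked outside the rule, did not pass (0.55, SE 0.21). Without Mr1+/+ PBS replicate 3 the median of the 8 was 0.64, against 0.53 with it. Of 19 receptors and surface proteins related to the 10, 5 rose: Axl, Cd36 (1.67, SE 0.38), Scarb1 (0.80, SE 0.18), Lamp1 (0.70, SE 0.16) and Lamp2 (0.94, SE 0.17). Leaving out Mr1+/+ PBS replicate 3, the median of the 19 was 0.51, against 0.49 with it. Of 9 lineage factors 3 rose, Cebpa (1.47, SE 0.20), Maf (0.83, SE 0.16) and the sterol receptor Nr1h3 (0.83, SE 0.14). Adipocytes, whose markers rose as given above, also use Cebpa and Cd36, and their part in these results was not tested.

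Monocyte genes went both ways. Of 10, 4 were positive and 6 negative, with a median of -0.19. Of the same 10, 1 rose and 1 fell, against 8.49% and 6.37% of all genes. Chil3, a chitinase-like protein of monocytes and activated macrophages, was at 1.55, 9.93 and 11.2 CPM in Mr1+/+ PD fluid and 0.40 and 0.21 CPM in Mr1+/+ PBS samples (4.54, SE 1.002, adjusted p = 0.0282). The other 3 positive genes did not pass: the Fc receptor gene Fcgr1 (1.53, SE 0.57), Ace (0.68, SE 0.48) and Treml4 (0.18, SE 0.23). Ly6c2 (-0.65, SE 0.50) and Cx3cr1 (-0.04, SE 0.17), which mark classical and patrolling monocytes, did not pass either. These 5 genes were picked outside the naming rule. Without Mr1+/+ PBS replicate 3 the median of the 10 was -0.28.

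Transcripts shared by all leukocytes had the opposite sign to the receptors. All 7 pan-leukocyte genes were negative in Mr1+/+ with PD fluid (median -0.60), and 1 of them fell, Arhgap45 (-0.97, SE 0.19, adjusted p = 0.0184). Of all genes 6.37% fell. Without Mr1+/+ PBS replicate 3 the median of the 7 was -0.87. Ptprc, which encodes CD45, was at 446, 276 and 237 CPM in Mr1+/+ PD fluid samples, against 604 and 566 CPM in Mr1+/+ PBS samples (-0.87, SE 0.27, adjusted p = 0.0661). The B cell list fell in 9 of 9 genes, among them Pax5 (-1.61, SE 0.22). The T cell list fell in 3 of 9, Cd28, Cd6 and Cd5. Its median was -0.76, and -1.04 without Mr1+/+ PBS replicate 3. The summed level of the 10 receptors was 1142 to 1395 CPM in Mr1+/+ PD fluid samples and 658 to 892 CPM in Mr1+/+ PBS samples, while that of the B cell list was 1188 to 1322 and 2113 to 3336 CPM. In Mr1-/- the receptors summed to 907 CPM with PD fluid and 559 to 631 CPM with PBS, and the B cell list to 2549 and 2331 to 2456 CPM. The part of the lower lymphocyte share in the receptor values was not tested.

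**Figure D5:**
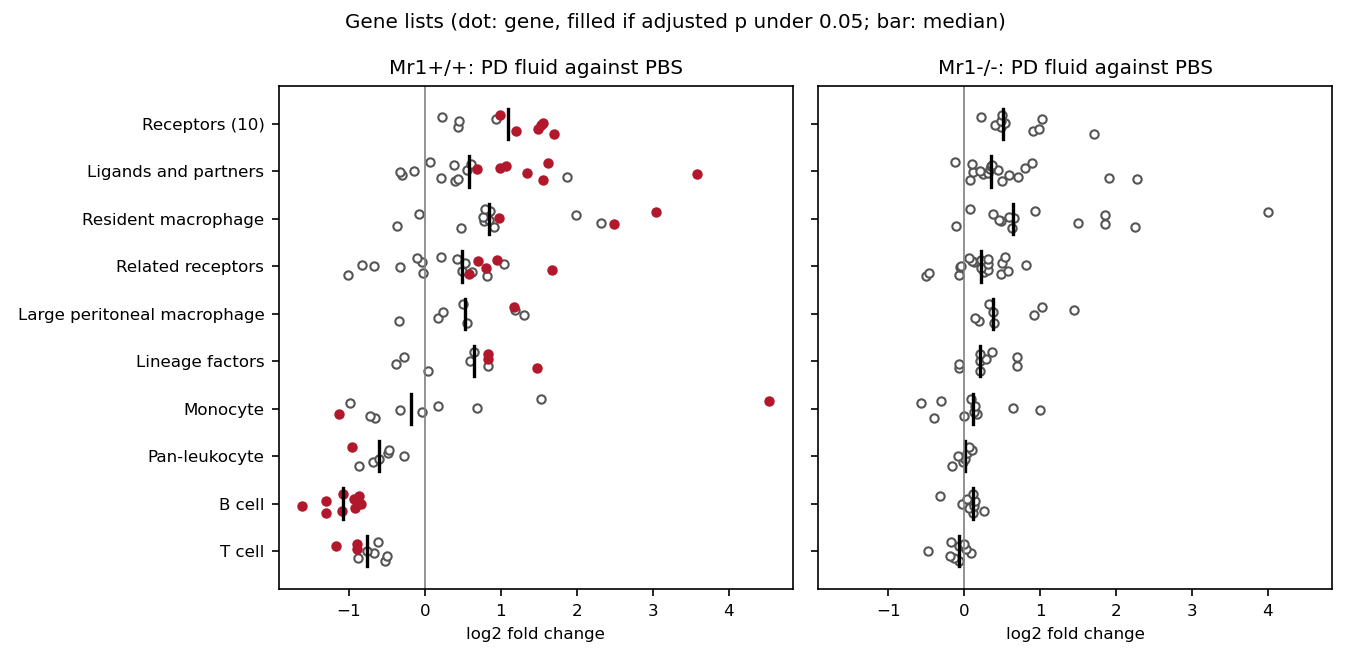
Log2 fold change for PD fluid against PBS (horizontal axis) of each tested gene in the receptor list and in 9 comparison lists, for Mr1+/+ on the left and Mr1-/- on the right, with filled dots for an adjusted p under 0.05 and a bar at the list's median. In Mr1+/+ the receptor median is 1.09 and the pan-leukocyte median -0.60, and in Mr1-/- they are 0.52 and 0.01.

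The genes whose profile lay closest to a receptor were found over the 8 samples, as the root mean square difference of centred log2 CPM among 11696 genes with a mean of at least 5 CPM. For Cd163 these were the matrix gene Fbln1 (0.15) and the macrophage lectin gene Mgl2 (0.20), where the median gene lay at 1.03. Adgre1 lay closest to the ficolin gene Fcna (0.25) and to the collagen gene Col6a6 (0.27, median gene 0.97). Itgam was closest to the lectin gene Clec4a3 (0.14), Cd68 to the platelet-activating factor receptor gene Ptafr (0.10) and Cd14 to the cathepsin gene Ctsk (0.11). Csf1r was closest to Dnm1 (0.09) and to the phagosomal metal transporter gene Slc11a1 (0.10). Mrc1 was closest to Cyp1b1 (0.18), Ccr2 to Acss3 (0.11) and Mertk to Cttnbp2nl (0.08). Trem2 had no close neighbour, with the stromelysin gene Mmp3 at 0.35 (median gene 0.79). The second neighbours not yet named were Zfpm2 (0.20) for Mrc1, Steap4 (0.15) for Ccr2, Gpx7 (0.17) for Itgam and Dtx4 (0.13) for Cd68. For Mertk it was Zfyve9 (0.10), for Cd14 Cdkn2b (0.13) and for Trem2 Adam12 (0.41). Among the 10 themselves the closest pair was Csf1r and Mertk (0.265), followed by Mrc1 and Cd14 (0.29). Csf1r and Mertk varied least of the 10 (SD of log2 CPM 0.40 and 0.29), and genes that vary little lie close by this measure. The median gene lay at 0.46 from Csf1r and 0.39 from Mertk. These distances describe 8 samples that share treatment groups and carry no test.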

How the data were processed

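The authors deposited whole-number read counts per gene symbol, not normalized, for 10 libraries of mouse peritoneum. Libraries were made from poly-A-selected RNA with random priming, per the labels' protocols. The submitters' processing notes name mm10. No aligner, counter, annotation, strand-marking step or molecular identifier is named in the sources used here, so PCR copies may count as reads. The labels tie no library to an animal: the p-values reflect variation among these libraries alone, possibly technical.

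Rows sharing a symbol were summed (21899 rows, 21877 symbols). Libraries of a group with a chi-square per gene under 5 were summed, giving 8 samples. Genes kept by filterByExpr (15385) were TMM-scaled and tested in edgeR 4.0.16 under R 4.3.3 (quasi-likelihood F tests, robust, 4 residual degrees of freedom), with Benjamini-Hochberg adjustment over all genes tested and a threshold of 0.05. SEs came from the fold change and its F statistic. For Mr1-/- PD fluid, with 1 sample, the other groups set the spread. The fit was tested on simulated data with known changes. Positions and lengths are from GENCODE M21 (mm10). Alternatives were 10 separate libraries, DESeq2 1.42.0, RLE size factors, no filter, only the groups compared, a replicate block and leaving out each library.

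The receptors and lists were chosen with earlier results of these data known. The naming rule took all 10 receptors and Mr1, and allowed partners of each receptor, the 2 genes nearest each receptor, and of each list up to 4 called genes by smallest p (2 with none called). Not all that it allowed are named. Cd36, the fifth of its list, Siglec1 and the genes said to be picked outside the rule were chosen after their values were seen. Mir511 lies within Mrc1 and was not counted separately here. A called gene of the monocyte list is not reported here by name.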

Additional observations from a re-analysis of the deposited data

How the results depend on the processing

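With RLE size factors and without the filter on low counts, the number of receptors called was as given above in every comparison. For PD fluid in Mr1+/+, 2286 genes were called over all, 5549 with the 10 separate libraries, 3780 with DESeq2 and 0 to 2751 without single libraries. Of the receptors 6 were called, and 0 to 7 without single libraries, the lowest without Mr1+/+ PD fluid replicate 3. For PD fluid in Mr1-/-, 0 genes were called, 2 with the 10 libraries, 3 with DESeq2 and 0 to 1 without single libraries, and 1 receptor with DESeq2. For genotype under PBS the 2 calls became 50 with the 10 libraries, 212 with DESeq2, 6 without the filter, 0 with only the groups compared and 1 to 3 without single libraries. Under PD fluid the 2 calls became 3400, 1031, 7 and 561 in the same order, and 0 to 33 without single libraries. The receptors called there were 3 with the 10 libraries, 1 with DESeq2 and 1 with only the groups compared (Adgre1). For the interaction the count of 0 became 1490 with the 10 libraries, 472 with DESeq2 and 0 to 1 without single libraries. The cause was not tested. The 10 libraries understate the spread if a near-identical pair is 1 sample.

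With the replicate number as a block in the 10 libraries, 5537 genes were called for PD fluid in Mr1+/+ (7 receptors), 3 for genotype under PBS, 2428 under PD fluid (2 receptors, Adgre1 and Cd14) and 1915 for the interaction. Same-numbered Mr1+/+ libraries deviated from their group means with correlations of 0.13, -0.11 and 0.10. Between Mr1+/+ PBS and Mr1-/- PBS, replicates 1 and 2 gave -0.16 and 0.17. Replicates 1 and 2 of Mr1+/+ PBS were nearly identical, so these values cannot decide whether the numbers pair samples. The labels tie no library to an animal, and the numbers were not taken to pair samples.

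Some log2 values that were not called changed sign. Leaving out single libraries moved Ccr2 between -0.074 and 1.13 for PD fluid in Mr1-/-. For genotype under PBS it moved Mrc1 between -0.23 and 0.40, Ccr2 between -0.0061 and 1.20, Itgam between -0.21 and 0.17, Trem2 between -0.60 and 0.26 and Mertk between -0.18 and 0.29. There the 10 libraries gave 0.062 for Mrc1 and 0.037 for Itgam, and the block 0.24, 0.27 and, for Mertk, 0.094. Under PD fluid Trem2 moved between -0.33 and 0.29 and was -0.065 in the block. The interaction moved between -0.29 and 0.22 for Cd163, -0.18 and 0.20 for Csf1r, -0.19 and 0.20 for Cd68, -0.26 and 0.62 for Trem2, and -0.43 and 0.13 for Mertk. There the 10 libraries gave -0.078 for Cd163 and -0.033 for Csf1r, the block -0.10 and -0.035, and the fit without the filter 0.015 for Mertk. Trem2 and Itgam had the lowest counts, 26 to 137 and 68 to 361 per library.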

Other observations

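In 3 further lists, cells that share some of these receptors were followed by their markers for PD fluid in Mr1+/+. There 8.49% of all genes rose and 6.37% fell. Of 9 dendritic cell markers 1 rose, the lectin gene Clec10a (1.26, SE 0.25, adjusted p = 0.0196), which macrophages also express. The dendritic cell list summed to 253 to 308 CPM in Mr1+/+ PD fluid and 242 to 273 CPM in Mr1+/+ PBS samples, which overlapped. Of 5 tested mast cell markers 1 rose, the protease gene Mcpt4 (1.91, SE 0.51, adjusted p = 0.0410), at 2.67 CPM in Mr1+/+ PD fluid and 0.72 CPM in Mr1+/+ PBS on average. Of 6 natural killer cell markers none passed, and those with the smallest p were Eomes (-0.65, SE 0.34) and Gzma (0.55, SE 0.32). Their sum was 43.9 to 60.9 CPM in Mr1+/+ PD fluid and 47.9 to 73.4 CPM in Mr1+/+ PBS samples. The medians were 0.17 for dendritic cell and -0.28 for natural killer cell markers. Without Mr1+/+ PBS replicate 3 they were 0.36 and -0.33.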
